A study of Homo sapiens with 2 samples.

Results

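The integrins and homing receptors described here are 9 genes of the natural killer (NK) cell line NK92, taken as the rows of the deposited expression table that carry the symbols ITGAL, ITGAM, ITGB2, ITGA4, ITGB1, ITGB7, ICAM1, CXCR3 and CXCR4. Each symbol matched 1 row, so the set holds 9 of 46427 rows. NK92 is an established human line that grows in suspension. RNA was sequenced from a dish exposed for 6 h to PPMX-T003, an antibody that blocks transferrin receptor 1, at 10 µg/mL, and from a Control dish without the antibody. Both dishes came from 1 culture kept for 18 h beforehand and were both cultured for an additional 6 h, although the table's column names give the Control as 0 h, so a difference in harvest time and the exposure cannot be told apart. Each condition has 1 library, with 46766416 reads counted for the Control and 43178462 for PPMX-T003, and no difference below has a replicate check.

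Integrins are pairs of an alpha and a beta subunit that hold a leukocyte to other cells or to matrix. The beta subunit ITGB2 joins ITGAL to form the receptor that binds ICAM1 on a target cell or on endothelium, and ITGA4 joins ITGB1 or ITGB7 to bind VCAM1, fibronectin or MADCAM1. Chemokine receptors such as CXCR3 and CXCR4 sense chemokine on a vessel wall or in a tissue, and their signals through G proteins turn integrins from a resting to a binding form.

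The line's identity was read from marker genes. All 12 NK cell markers listed were expressed, meaning that both libraries had a deposited TPM, a level scaled to transcript length and library, of 1 or more, and their summed TPM was 7380 in the Control and 7910 in PPMX-T003. The granule gene NKG7 was the most abundant, at a TPM of 3215 and 3445. The 12 were uneven, with GZMB at 1850 and 2149 and KLRD1 and FCER1G each at 8 and 7. Of 8 T cell markers 3 were expressed, led by CD3E at 673 and 698, with a summed TPM of 1078 and 1152. CD3D, CD3G, CD8A and CD8B had 0 counts. Of 4 B cell markers CD79A reached a TPM of 1 in each library, which was also the list's sum, while MS4A1 had 0 counts. The 6 myeloid markers summed to 417 and 411, nearly all of it S100A9 at 393 and 388, with LYZ at 2 and 0 counts and CD14 at 0 and 7. The endothelial genes CDH5 and VWF, the stromal genes COL1A1 and COL1A2, and the hepatocyte gene ALB, 5 listed as markers of non-blood cells, had 0 counts. The transcript of the antibody's target, TFRC, stood at a TPM of 184 in both libraries.

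All 9 genes were expressed by the TPM threshold of 1, and 8 of them at 52 or above. ITGB2, the beta subunit shared by the leukocyte integrins, was the highest on deposited TPM, with a value of 431 in the Control and 427 in PPMX-T003, from 25377 and 24084 reads. It ranked 355 among all genes of the table by mean TPM. By reads per kilobase of the longest transcript the order of the first 2 turned, with ITGA4 at 10016 and 8501 above ITGB2 at 7985 and 7578. The gene lies on the minus strand of chr21:44885953-44928815 in GRCh38.p14, and its exons overlap those of the antisense gene ITGB2-AS1, which had 687 and 743 reads. Whether the counting used strand is not given in the sources used here, so reads of the overlap cannot be told apart. In GENCODE 29, exons of ITGB7 overlap ZNF740 (1939 and 1655 reads), those of ITGB1 overlap ITGB1-DT (5 and 4 reads), and those of ITGAL and ICAM1 overlap unnamed loci, each on the opposite strand.

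Of the alpha subunits that join ITGB2, ITGAL was the main one. It lies on the plus strand of chr16:30472742-30523185 and had a TPM of 229 and 224, from 24625 and 23001 reads. ITGAM, the alpha subunit of the complement receptor typical of myeloid cells and of many blood NK cells, lies on the same strand at chr16:31259975-31332877 and had a TPM of 3 and 2. Its 213 reads in the Control had an exact 95% Poisson interval of 185 to 244 and its 180 reads in PPMX-T003 one of 155 to 208, an interval that covers counting error only. ITGAM was thus detected well above 0 but ranked 10303 by mean TPM, and it was the lowest of the 9. The other alpha partners of ITGB2 were both above it: ITGAD had a TPM of 60 in both libraries and ITGAX 15 in both. ITGAM, ITGAX and ITGAD are close relatives, and reads that fit more than 1 of them could have been split by the authors' counting. Summed over these alpha partners the TPM was 307 and 301, below that of ITGB2 alone.

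ITGA4 carried the highest level of any alpha subunit, a TPM of 309 and 276 from 41957 and 35610 reads, and lies on the plus strand of chr2:181457205-181538940. Its beta partners were unequal. ITGB7, on the minus strand of chr12:53191323-53207251, had a TPM of 157 and 160, and ITGB1, on the minus strand of chr10:32900318-32958230, had 62 and 52. The partner known from gut homing was thus the more abundant transcript in both libraries, and the ratio of ITGA4 to ITGB7 was 1.97 in the Control and 1.73 in PPMX-T003, against 4.98 and 5.31 for ITGA4 to ITGB1. Per kilobase of the longest transcript these were 3.10 and 2.68, and 7.88 and 8.37, so the order of the pairs held and the size of each ratio did not. ITGAL to ITGB2 gave 0.531 and 0.525, and ITGAM to ITGB2 0.00696 and 0.00468. The last pair rests on TPM values of a single digit, and per kilobase it was 0.00562 and 0.00501. ITGB7 and ITGB1 summed to 219 and 212, below ITGA4 alone. These are ratios of transcripts, and surface protein was not measured in these libraries.

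Among 20 other integrin subunits, 7 were expressed and 10 had 0 counts in both libraries. ITGA6, a laminin receptor subunit that joins ITGB1 or ITGB4, followed ITGAD with a TPM of 26 in both. ITGAE, the alpha subunit that joins ITGB7 to bind E-cadherin, had 5 and 4. The 10 without counts were ITGA2, ITGA3, ITGA5, ITGA8, ITGA11, ITGAV, ITGB3, ITGB4, ITGB6 and ITGB8, so the fibronectin receptor alpha subunit ITGA5 and the vitronectin receptor alpha subunit ITGAV were among them. Of the TPM summed over 18 alpha subunits, ITGAL, ITGAM and ITGA4 held 83.1% in the Control and 82.3% in PPMX-T003. Of the TPM summed over 8 beta subunits, ITGB1, ITGB2 and ITGB7 held 98.6% and 98.9%.

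**Figure D1:**
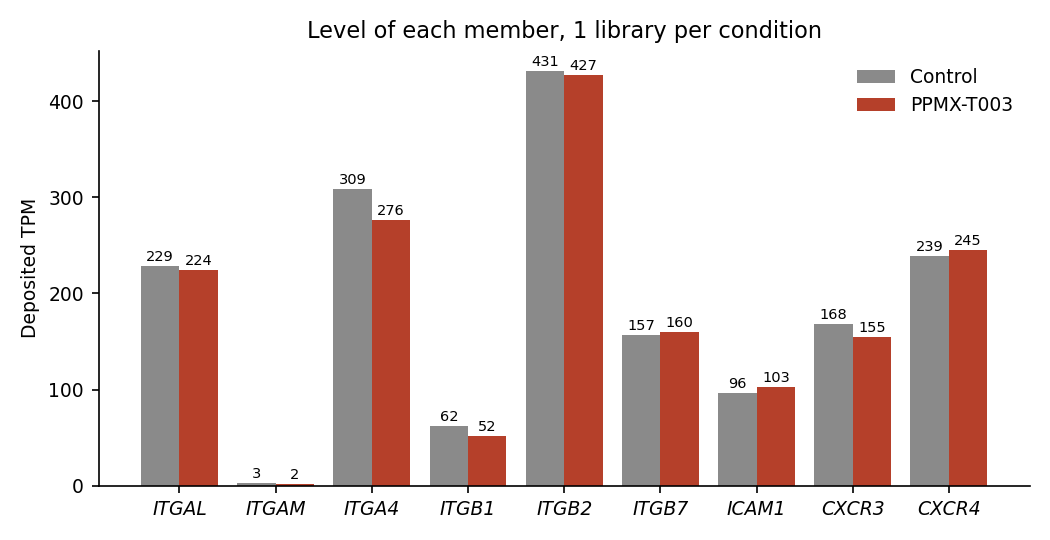
Deposited TPM of the 9 genes on a linear axis from 0, with a grey bar for the Control library and a red bar for the PPMX-T003 library. ITGB2 stands highest at 431 and 427, and ITGAM lowest at 3 and 2.

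The cells also carried a ligand of their own integrin. ICAM1, the immunoglobulin-type counter-receptor of ITGAL with ITGB2, had a TPM of 96 in the Control and 103 in PPMX-T003, from 5928 and 6076 reads, and lies on the plus strand of chr19:10271120-10286615. Of 10 other integrin ligands of its superfamily 3 were expressed. They were F11R, a junction molecule that binds ITGAL with ITGB2, at 35 and 32, ICAM2 at 11 and 10, and ICAM5 at 1 and 1. VCAM1 and MADCAM1, the vessel ligands of the ITGA4 integrins, had 0 counts in both libraries, as did JAM3.

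Both chemokine receptors were abundant. CXCR4, the receptor of the marrow and stromal chemokine CXCL12, had a TPM of 239 and 245 from 8326 and 8191 reads, and lies on the minus strand of chr2:136114349-136118149. CXCR3, which binds the interferon-induced chemokines CXCL9, CXCL10 and CXCL11, had 168 and 155 from 5676 and 5062 reads, and lies on the minus strand of chrX:71615919-71618511. Their ligands were low, with CXCL12 at 0 counts. CXCL10, with 36 and 48 reads and a TPM of 1 and 2, was the 1 of the 4 listed that was expressed. CCR1, a receptor of inflammatory chemokines, exceeded both members with a TPM of 369 and 324. XCR1 lay below them at 47 and 44. Of 20 other chemokine receptors 8 were expressed, and CXCR2, CXCR5, CCR8, CCR9 and ACKR1 had 0 counts. CXCR6, known from NK cells that reside in liver, had 11 and 14 reads and did not reach a TPM of 1.

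**Figure D2:**
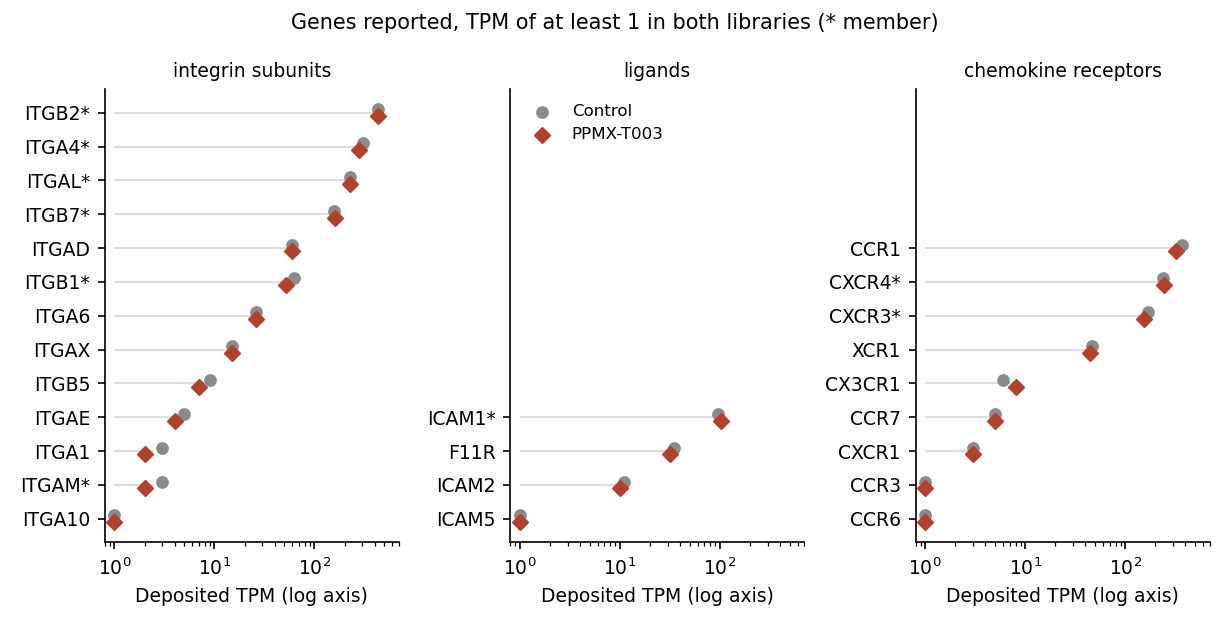
Deposited TPM on a log axis of the genes reported here, in panels for integrin subunits, integrin ligands of the immunoglobulin superfamily and chemokine receptors that reached a TPM of 1 in each library, with circles for Control, diamonds for PPMX-T003 and an asterisk for the 9 genes described. ITGB2, ITGA4, ITGAL and ITGB7 lead the integrin subunits, while CCR1 at 369 and 324 lies above CXCR4 and CXCR3.

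The upstream sequence of a few of these genes is shown beside their levels, since ITGAM was the lowest of the 9 and ITGB1, ICAM1 and CXCR4 were among those that differed between the libraries beyond counting error. RefSeq promoter sequences of GRCh38.p14 matched 7 of the 9 genes, all but ITGAL and ITGB2. The 250 bases before the start of the gene are printed 5′ to 3′ on the gene's strand, for ITGAM chr16:31259725-31259974 (plus), for ITGB1 chr10:32958231-32958480 (minus), for ICAM1 chr19:10270870-10271119 (plus) and for CXCR4 chr2:136118150-136118399 (minus). ITGB1 has 2 starts in that set and CXCR4 3, of which the outermost is shown. Capitals mark any match, on either strand, to TATAAA (the TATA box), to GGGCGG (the GC box), to GGAAG (a core of ETS factor sites) or to TGTGGT (a core of RUNX sites). A GC box followed by AAG also holds the ETS letters, so capitals of both can run together, as can 2 GC boxes or a TATA box and its match on the other strand.
ITGAM: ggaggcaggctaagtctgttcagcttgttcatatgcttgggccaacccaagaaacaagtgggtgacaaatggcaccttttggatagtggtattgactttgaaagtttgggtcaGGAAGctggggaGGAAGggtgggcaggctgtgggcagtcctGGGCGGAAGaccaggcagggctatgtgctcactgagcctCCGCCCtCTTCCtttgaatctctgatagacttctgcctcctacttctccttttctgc
ITGB1: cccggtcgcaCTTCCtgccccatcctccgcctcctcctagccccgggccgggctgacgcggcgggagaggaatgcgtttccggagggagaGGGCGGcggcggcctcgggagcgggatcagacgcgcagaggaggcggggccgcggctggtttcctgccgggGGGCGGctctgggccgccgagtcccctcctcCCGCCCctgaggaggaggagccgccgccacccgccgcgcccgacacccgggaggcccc
ICAM1: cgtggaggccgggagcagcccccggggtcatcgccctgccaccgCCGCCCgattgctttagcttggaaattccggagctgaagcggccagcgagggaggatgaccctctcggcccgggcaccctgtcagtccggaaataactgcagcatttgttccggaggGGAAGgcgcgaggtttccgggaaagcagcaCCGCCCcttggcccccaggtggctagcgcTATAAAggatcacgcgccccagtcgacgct
CXCR4: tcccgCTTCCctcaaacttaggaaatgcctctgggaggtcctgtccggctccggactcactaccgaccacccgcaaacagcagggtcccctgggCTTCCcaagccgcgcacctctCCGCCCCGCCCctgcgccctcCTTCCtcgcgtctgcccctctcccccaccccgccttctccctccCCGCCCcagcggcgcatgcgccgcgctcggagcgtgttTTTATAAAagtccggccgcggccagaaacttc
The windows differed in base composition. The ITGAM window held 53.2% G and C and 2 CpG pairs, whereas ITGB1 held 78.4% and 32 pairs, CXCR4 68% and 24, and ICAM1 66% and 23. The median over 27305 genes was 58%. TATAAA was found in ICAM1 from 30 to 25 bases before the start and in CXCR4 at the same distance, there also on the other strand from 32 to 27, and in 11.1% of all promoters of this length. It was not found in the windows shown of ITGAM and ITGB1. The windows not shown differed from these: that of the other ITGB1 start held 3 TATAAA matches, 41.6% G and C and 4 CpG pairs, and those of the other CXCR4 starts held none, at 55.6% and 51.6% G and C. GGGCGG, present in 42.3% of all promoters, matched 3 times in ITGB1, 3 times in CXCR4, and 2 times each in ICAM1 and ITGAM. GGAAG, present in 65.1%, matched 4 times in ITGAM, 3 times in CXCR4, and once each in ITGB1 and ICAM1. TGTGGT, present in 10.9%, matched in none of the 4 windows. A match is a run of letters, and binding was not measured.

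The comparison of the dishes asked how the transcripts of these genes stood after 6 h with the antibody. Differences are log2 ratios of CPM, reads scaled to library size, after TMM scaling with 2 prior counts, PPMX-T003 minus Control, each with a 95% Clopper-Pearson interval for counting error. None of the 9 differed by 2-fold or more, against 1.27% of 13665 genes tested that were at least 2-fold higher and 1.38% that were at least 2-fold lower. By the counting interval 4 of the 9 were higher, namely ICAM1, CXCR4, ITGB7 and ITGB2, of which ITGB7 and ITGB2 turned below 0 once a joint trend on length and GC content was removed. ITGB1 and ITGA4, 2 of the 9, were lower, and the interval held 0 for ITGAL, ITGAM and CXCR3. In the same libraries 22% of all genes tested had an interval above 0 and 23.7% below it. Among the 8359 genes with at least 1000 counts, the class of 8 of these 9, the shares were 28.1% and 31.9%, so most genes of that depth differed by this rule and the members' counts are read only against that background.

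On TMM-scaled counts without correction for the trend, the difference of ITGB1 was the farthest from 0, and with the trend removed by longest transcript that of CXCR3 was. On deposited TPM that of ITGAM was, at -0.42 from a TPM of 3 and 2. The CPM of ITGB1 was 103 in the Control and 89.1 in PPMX-T003, a log2 difference of -0.21 (interval -0.27 to -0.14). ITGA4, its alpha partner, had 896 and 826 CPM and a log2 difference of -0.12 (-0.14 to -0.10). Both subunits of that pair were thus lower in the exposed dish under TMM scaling and under each of the 3 other scalings. ITGB7, the other partner of ITGA4, stood at 198 and 211 CPM, a log2 difference of 0.09 (0.05 to 0.13) that did not hold its sign with that joint trend removed. The read ratio of ITGA4 to ITGB7 differed by -0.21 on the log2 scale (-0.25 to -0.16), and that of ITGA4 to ITGB1 by 0.09 (0.02 to 0.15), both for counting error only. With a fit on transcript length and GC content removed, the difference of the ITGA4 to ITGB7 ratio was -0.06 with either set of transcript features, smaller and outside that interval, and that of ITGA4 to ITGB1 was 0.07 and 0.06.

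The pair that binds ICAM1 barely moved. ITGAL stood at 526 and 533 CPM, a log2 difference of 0.02 (-0.01 to 0.05), and ITGB2 at 542 and 558 CPM, one of 0.04 (0.02 to 0.07). On deposited TPM and with the trend removed by median transcript both went below 0, ITGAL to -0.03 and -0.05 and ITGB2 to -0.01 and -0.10. By longest transcript ITGB2 was below 0 and ITGAL at 0.00. On deposited TPM the median of genes with at least 1000 counts was itself -0.05, below the TPM differences of both. ITGAM at 4.55 and 4.17 CPM gave -0.12 with the wide interval of -0.42 to 0.17, so no difference of ITGAM was detectable at this depth. The ligand ICAM1 stood at 127 and 141 CPM, a log2 difference of 0.15 (0.10 to 0.21) that was the highest of the 9, a place CXCR4 took with the trend removed.

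Of the chemokine receptors, CXCR4 had 178 and 190 CPM and a log2 difference of 0.09 (0.05 to 0.14), and CXCR3 had 121 and 117 CPM and one of -0.05 (-0.10 to 0.01). The central 95% of genes with at least 1000 counts reached from -0.33 to 0.27, and all 8 members of that depth lay inside it. A difference as far from 0 as that of ITGB1 was seen in 16.5% of such genes, as that of ICAM1 in 29.4% and as that of ITGA4 in 42.4%.

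**Figure D3:**
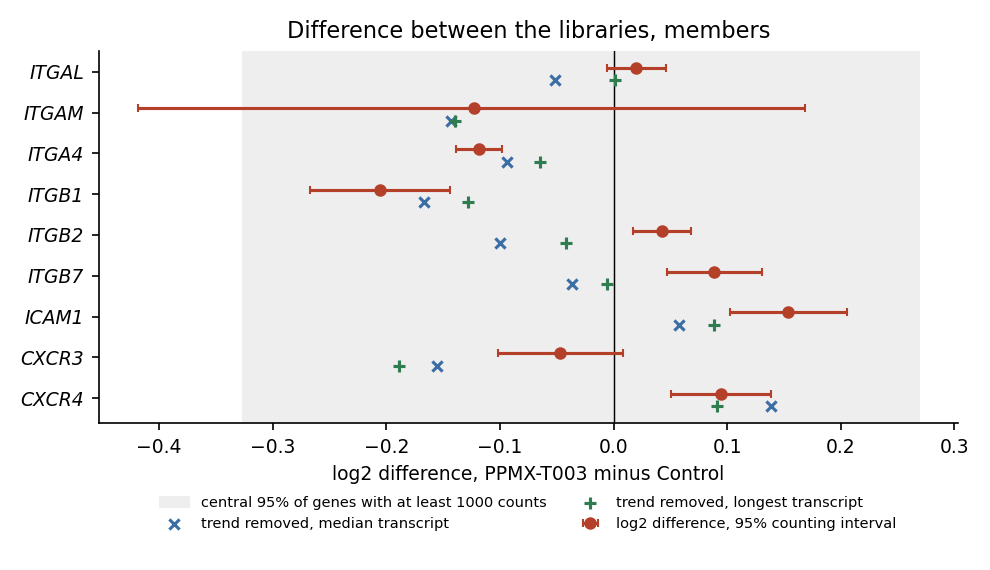
Log2 difference of each of the 9 genes, PPMX-T003 minus Control, as a red circle with its 95% counting interval, over a grey band for the central 95% of genes with at least 1000 counts (-0.33 to 0.27). Crosses and plus signs give the difference with the trend on transcript length and GC content removed, which puts ITGB2 and ITGB7 below 0 by both sets of transcript features and ITGAL by the median transcript.

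The differences moved with the base composition of the transcript. With 8145 genes of at least 1000 counts in 10 equal groups by GC content of their longest transcript, the median log2 difference went from -0.13 in the group lowest in GC to 0.12 in the group highest in GC, with a wide spread inside each group (central 95% of -0.39 to 0.13 in the lowest). The members spread over that range. ITGB1 (40.0% GC), CXCR4 (43.9%) and ITGA4 (44.1%) lie in its lower part, and the other 6 between 54.2% (ITGAM) and 61.4% (CXCR3). In the group of ITGB1 the median was -0.11, and in that of ITGA4 and CXCR4 it was -0.05. In the group of ICAM1 and ITGAL the median was 0.07, in that of ITGB2 and ITGB7 0.09, and in that of CXCR3 0.12. ITGB7 thus stood at the median of its group. CXCR3, ITGB1, ITGA4, ITGAL and ITGB2 stood below theirs, and CXCR4 and ICAM1 above. Of the 8 with at least 1000 counts, CXCR3 was the farthest from its group median, at -0.16, followed by CXCR4 at 0.14.

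With a robust fit on transcript length and GC content removed, ITGB1 was at -0.17 with median transcript features and at -0.13 with the longest transcript, and ITGA4 at -0.09 and -0.07. CXCR4 was at 0.14 and 0.09 and ICAM1 at 0.06 and 0.09, the same side of 0 as without the fit. ITGB7 turned to -0.04 and -0.01 and ITGB2 to -0.10 and -0.04, and ITGAL, whose interval held 0, was at -0.05 and 0.00, so no direction is given for these. CXCR3 went to -0.16 and -0.19, farther from 0 than its -0.05. What gave rise to the trend was not tested.

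**Figure D4:**
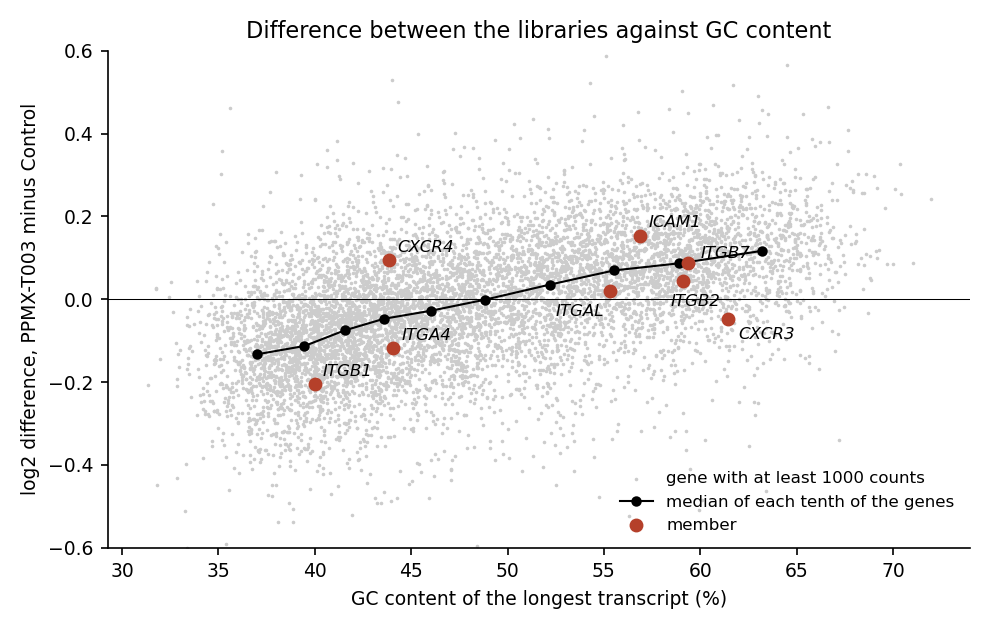
Log2 difference, PPMX-T003 minus Control, against GC content in percent of the longest transcript for 8145 genes with at least 1000 counts (grey), with the median of each of 10 equal groups of genes (black line) and 8 of the 9 genes described (red, ITGAM being below that depth). The axis leaves out 22 genes beyond 0.6 in either direction, and the line goes from -0.13 to 0.12 with ITGB7 on it, CXCR4 and ICAM1 above it, and ITGB1, ITGA4 and CXCR3 below it.

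The median log2 difference of the 9 genes was 0.02, beside -0.00085 over all genes tested. With the fit removed it turned to -0.09 (median transcript) and -0.04 (longest), with 7 and 6 of the 9 below 0 against 4 before. On deposited TPM the median of the 9 was -0.03, where that of genes with at least 1000 counts was -0.05. The direction of the members' median therefore depends on the scale. Of the 20 other integrin subunits 8 had the 20 reads needed to be tested, with a median of 0.04 that turned to -0.07 among those with at least 200 reads, 1 interval above 0 and 3 below. Over all genes tested the shares were 22% and 23.7%, and nothing particular to the list is read from so few. ITGA1, a collagen receptor subunit that joins ITGB1, had 685 reads in the Control and 358 in PPMX-T003, a TPM of 3 and 2 and a log2 difference of -0.81 (-1.01 to -0.63). A difference as far from 0 was seen in 0.12% of genes with at least 1000 counts. With the trend removed ITGA1 was at -0.64 and -0.65. Its exons overlap those of PELO on the same strand, so its reads are uncertain. ITGAE was at -0.27 (-0.47 to -0.08), ITGB5 at -0.18 (-0.33 to -0.02) and ITGAX at 0.12 (0.00 to 0.23). None of the 8 passed 2-fold. The 3 tested ligands of the immunoglobulin superfamily had a median of -0.03, and each interval held 0. With the trend removed that median was 0.005 and -0.02, so no direction is given for it. Exons on the same strand from other loci also make ITGAD, F11R, PARVB and FOXO1 uncertain. Exons on the opposite strand overlap those of further genes named here, among them ITGAE (HASPIN), FERMT3 (TRPT1), ITGB1BP1 (ASAP2) and ILK (TAF10). These are uncertain too, as the use of strand in counting is not given.

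Of 19 genes that promote or restrain the switch of integrins to the binding form 16 were tested, with a median of 0.03, 6 intervals above 0, 6 below and none past 2-fold. Of them 15 had at least 1000 counts, a depth at which 28.1% of genes were above 0 and 31.9% below, so nothing particular to the list is read from the counts, and with the trend removed the median was -0.04 by both fits. FERMT3, the kindlin that binds beta subunit tails in blood cells, had a TPM of 381 and 389 and a log2 difference of 0.08 (0.06 to 0.11), which turned to -0.05 and -0.04 with the trend removed by median and by longest transcript. FLNA, which competes for those tails, had 608 and 611 and was at 0.06 (0.05 to 0.07), or 0.02 and 0.03 with the trend removed. RASSF5, a partner of active RAP1, had 164 and 152 and was at -0.05 (-0.09 to -0.02). The lowest by interval were the kinase STK4, with a TPM of 129 and 102 and a difference of -0.24 (-0.27 to -0.20), and the small GTPase RAP1A, with 150 and 123 and a difference of -0.22 (-0.26 to -0.19). With the trend removed STK4 was at -0.14 and -0.15 and RAP1A at -0.12 and -0.11. RASGRP2, the exchange factor that loads RAP1, was the highest by the bound of its interval nearest 0, at 0.28 (0.16 to 0.40), and ITGB1BP1, at 0.15 (0.07 to 0.22), was next by that bound. With the trend removed they were at 0.12 and 0.16, and at 0.11 and 0.22.

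Of 13 genes of the integrin adhesion complex 10 were tested, with a median of 0.01, 4 intervals above 0 and 4 below. All 10 had at least 1000 counts, so the same shares of 28.1% and 31.9% apply, and the median turned to -0.06 by both fits with the trend removed. ZYX at a TPM of 214 and 208, PXN at 207 in both and PTK2B at 102 and 103 were the most abundant. PTK2, the focal adhesion kinase, had 0 counts in both libraries while its relative PTK2B was expressed. ILK was at 0.24 (0.13 to 0.34) and PARVB at 0.22 (0.11 to 0.33), and CRKL and LIMS1 were at -0.14 (-0.18 to -0.09) and -0.13 (-0.18 to -0.08). With the trend removed these kept their sign, ILK at 0.18 and 0.15, PARVB at 0.16 and 0.22, CRKL at -0.08 and -0.10 and LIMS1 at -0.09 and -0.05. PARVG, a relative of PARVB with a TPM of 90 and 89, was at 0.00 (-0.06 to 0.07). With the trend removed PARVG was at -0.10 and -0.06.

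Of 20 other chemokine receptors 11 were tested, with a median of -0.06, 1 interval above 0 and 4 below, beside 22% and 23.7% of all genes tested. That median was -0.05 and -0.03 with the trend removed by median and by longest transcript, and 0 on deposited TPM. CCR10 with 22 and 3 reads and ACKR2 with 41 and 8 were the 2 that passed 2-fold, at -2.17 (-5.14 to -1.02) and -2.00 (-3.54 to -1.13), both from few reads, beside 1.38% of all genes tested that were at least 2-fold lower. Exons of ACKR2 overlap KRBOX1 on the same strand and those of CCR10 overlap CNTNAP1 on the other, so both are uncertain. CCR1 was at -0.13 (-0.16 to -0.10), and at -0.08 and -0.13 with the trend removed, on the other side of 0 from CXCR4. CX3CR1, the fractalkine receptor, had 384 and 476 reads and was at 0.43 (0.23 to 0.63).

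Of 11 other homing and egress genes 9 were tested, with a median of 0.09, 3 intervals above 0 and none below, beside 22% and 23.7% of all genes tested. The median depended on the setting, at 0.18 with a filter of 1 read, 0.05 with 200, 0.06 with the trend removed by longest transcript and 0 on deposited TPM. SELPLG, the selectin ligand, had a TPM of 108 in both libraries and CD44 90 and 84. The transcription factor FOXO1 had 73 and 119 reads and was at 0.81 (0.39 to 1.26), and S1PR4 was at 0.26 (0.16 to 0.37), which went to 0.09 and 0.06 with the trend removed. S1PR5, the egress receptor of mature NK cells, had 0 counts. Of 17 genes that carry or end chemokine receptor signals 15 were tested, with a median of -0.01, 6 intervals above 0 and 5 below. Of them 13 had at least 1000 counts, where 28.1% and 31.9% of genes were above and below 0, and with the trend removed the median was -0.07 and -0.09. The median turned to 0.01 with upper-quartile scaling and to 0.02 with a filter of 1 read, so no direction is given for it. CORO1A had a TPM of 2491 and 2470, and RAC2, at 606 and 639, was at 0.14 (0.11 to 0.17), which went to -0.01 and 0.01 with the trend removed. GRK2, the kinase that desensitises CXCR4, had 314 and 330 and was at 0.13 (0.10 to 0.15), which went to 0.02 and 0.01. RGS1 and RGS16, which shorten G protein signals, were at -0.56 (-0.83 to -0.30) and -0.32 (-0.40 to -0.25), with a TPM of 11 and 7 and of 67 and 51. Of the 4 chemokine ligands CXCL10 alone could be tested, and its interval of -0.12 to 1.20 held 0.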

How the data were processed

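Libraries of NK92 (TruSeq stranded mRNA) were sequenced once per condition, so no dispersion could be estimated and no p-value is given. According to the submitters' processing notes and the methods, the authors trimmed reads with Trimmomatic 0.38, mapped them to hg38 with HISAT2 2.2.0, counted them with StringTie 2.1.3b and named edgeR 3.17 for their comparison. The deposited counts are whole reads per gene and not scaled. The authors deposited TPM and FPKM as whole numbers, so both are used as a score and low values are coarse. Commas inside deposited counts were removed, and no column was left unused.

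The members and lists were chosen with earlier results of these data known. Counts were scaled by TMM (30% of log ratios and 5% of levels trimmed), written in Python 3.11.15 (scipy 1.17.1, numpy 2.4.6), and genes with at least 20 reads over both libraries were tested. A gene was not detected with no more than 3 reads in both. The scaling, log2 difference and counting interval were tested on simulated counts. Those counts held no length or GC trend, so the trend fit was not tested on them. The trend used a Huber fit (statsmodels 0.14.6) on genes with at least 200 reads and GENCODE 29 transcripts, which matched 88.5% of genes tested and all 9 members. Coordinates come from RefSeq. Some listed genes enter the counts and medians of their list and are not reported here by name. Genes named beyond the members were, of each list, the 3 with the highest mean TPM, those past 2-fold, the 2 highest and 2 lowest by the interval bound nearest 0 where the interval left out 0, and, of each marker list, the most abundant gene and genes at 0. Other genes, such as ITGB5, CXCR6 and listed genes at 0, were named after their values were seen, and so were the motifs and the printed promoters chosen.

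Alternatives were other scalings, prior counts, count filters, thresholds, units and the trend removed.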

Additional observations from a re-analysis of the deposited data

How the results depend on the processing

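No paired analysis was possible because there is 1 library a condition, and none could be left out for the same reason. With the scaling by library size, median-of-ratios or upper quartile, a prior count of 0.5 or 5, or a filter of 1 or 200 reads, each of the 9 log2 differences kept its sign. None of the 9 passed 2-fold in any alternative, or 1.5-fold under TMM. The counts of members with an interval above and below 0 were 4 and 2 under each other scaling and with a 99% interval, except that ITGAL joined under upper-quartile scaling to make 5 above.

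ITGB2 turned from 0.04 to -0.013 on deposited TPM with a pseudocount of 1, and to -0.10 and -0.042 with the length and GC trend removed by median and by longest transcript. ITGB7 turned from 0.09 to -0.036 and -0.0057 under the same fits, and ITGAL, whose interval held 0, went from 0.02 to -0.03 on TPM and -0.05 by median transcript. On TPM 5 others kept their sign and moved by over 1.5 times, CXCR4 from 0.09 to 0.04, ITGB7 from 0.09 to 0.03, ICAM1 from 0.15 to 0.10, CXCR3 from -0.05 to -0.12 and ITGAM, with a TPM of 3 and 2, from -0.12 to -0.42. The fit by longest transcript was chosen after seeing the data. The cause of these turns was not tested. The median of integrin activation genes went from 0.03 to -0.087 on TPM. On that scale the median of genes with at least 1000 counts was -0.05, and the members' TPM differences are to be read beside it as well. With counts per kilobase of the longest transcript, the ratio of ITGAL to ITGB2 was 0.592 in the Control and 0.582 in PPMX-T003, that of ITGA4 to ITGB1 7.88 and 8.37, that of ITGA4 to ITGB7 3.10 and 2.68, and that of ITGAM to ITGB2 0.00562 and 0.00501, or 0.00549 and 0.00541 on FPKM, closer between the libraries than on TPM. The ratio on FPKM rests on values rounded to whole numbers. From a TPM of 5, 8 of the 9 were expressed.

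The libraries show counting error and nothing of the spread between dishes or cultures, so exposure and dish cannot be told apart. ITGAM, at 213 and 180 reads, is limited by depth.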

Other observations

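All 12 NK cell markers listed passed a TPM of 1, and so did 3 T cell markers, among them the receptor genes TRBC1 and TRAC. TRBC1 and TRAC had a deposited TPM of 330 and 75 in the Control and 385 and 69 in PPMX-T003. The myeloid gene S100A9 had 393 and 388, from 4699 and 4434 reads, while its partner S100A8 had 19 and 15, with 176 and 126 reads and a log2 difference of -0.36 (counting interval -0.71 to -0.03). CD68 had 188 and 268 reads and a log2 difference of 0.62 (0.36 to 0.91), uncertain because its exons overlap another locus on the same strand. CSF1R had 22 and 9 reads and a log2 difference of -1.02 (-2.47 to 0.01), past 2-fold with an interval that held 0.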
